A study of Mus musculus with 24 samples.

Results

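Chemokines and their receptors were followed in the lung and the left ventricle of mice given particulate matter (PM). The members are all genes on the array whose symbol places them among the CC, CXC, CX3C or XC ligands, the receptors of these ligands or the atypical chemokine receptors. There were 54 of them among 18193 genes with a symbol of their own, namely 33 ligands, 17 conventional receptors and 4 atypical receptors. All mice were of the CD-1 strain and 20 weeks old. The dnCREB mice carried dominant negative CREB1 under the myosin heavy chain-alpha promoter, which is specific to cardiomyocytes, and the series uses these mice as a model of cardiac failure. In each tissue, 3 arrays came from dnCREB mice given PM, 3 from dnCREB mice given phosphate-buffered saline (PBS), 3 from wild-type (WT) mice given PM and 3 from WT mice given PBS. The dose of PM was 20 mg/kg of particles of 1.9 µm, and tissue was taken after 36 h.

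Chemokines are small secreted proteins that form gradients along which leukocytes migrate, and they act through receptors coupled to G proteins of the Gi class. Atypical receptors bind chemokines without coupling to G proteins and remove or redistribute them. In the lung, the CXC ligands of Cxcr2 recruit neutrophils and the ligands of Ccr2 recruit monocytes, whereas in the heart Cxcl12 is among the chemokines best known from the vessels and stroma.

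Each array gave log2 expression values that the authors computed with GCRMA, a method that corrects background, normalizes between arrays and summarises each probe set, and values are given on that scale throughout. Where a gene had several probe sets, the one whose mean was highest across the 24 arrays stood for it. Arrays give no counts, so their number limits the precision, and p-values measure the spread between these samples. Array medians lay between 4.09 and 4.19 in lung and between 3.25 and 3.37 in heart. A log2 value of 4 thus lay below the array medians in lung and above them in heart. No difference in level between the tissues was tested. The labelled tissues carried their markers, since the summed lung epithelium list lay between 16.64 and 17.13 in lung and the summed cardiomyocyte list between 18.58 and 18.86 in heart. The Creb1 probe set that differed most, of 6, averaged 10.39 ± 1.22 in dnCREB PM hearts and 10.45 ± 1.43 in dnCREB PBS hearts, against 2.65 ± 0.19 in WT PM hearts and 2.94 ± 0.30 in WT PBS hearts (SD, n = 3 each).

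Some arrays stood apart from their labels, which describe the animals as male. Xist, the transcript of the inactive X chromosome, exceeded a log2 value of 8 on 3 of 3 dnCREB PM lungs, 1 of 3 dnCREB PBS lungs, 2 of 3 WT PM lungs and 0 of 3 WT PBS lungs. It did so on 1 of 3 dnCREB PM hearts, 0 of 3 dnCREB PBS hearts, 3 of 3 WT PM hearts and 3 of 3 WT PBS hearts. Genotype in the heart and PM in the lung therefore largely ran with this difference. On 2 of 3 dnCREB PBS lungs, neither Xist nor the Y-linked transcript Eif2s3y exceeded 8. No other group held such an array. Fast skeletal muscle transcripts were high on 5 lung arrays, namely dnCREB PM replicate 3, dnCREB PBS replicates 1 and 3, and WT PM replicates 1 and 2. The lung calls under PM, over both genotypes and in WT mice, are given with and without these 5 arrays. The other lung results are not given without them.

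In lung, 32 of the 54 members lay above a log2 value of 4 on at least 3 arrays, made up of 18 ligands, 11 conventional receptors and 3 atypical receptors, and these were tested. In heart, 20 did so, made up of 14 ligands, 3 conventional receptors and 3 atypical receptors. For comparison, 63.8% of all genes passed in lung and 54.8% in heart. All 20 members that passed in heart also passed in lung. The 12 that passed in lung alone were the ligands Ccl5, Ccl25, Cxcl15 and Cxcl17 and the receptors Ccr1, Ccr2, Ccr6, Ccr7, Cxcr2, Cxcr3, Cxcr5 and Cxcr6. For Ccr1 and Ccr2 this depended on the probe set, since another Ccr2 probe set lay at 6.66 to 7.29 on all 12 heart arrays and another Ccr1 probe set exceeded 4 on 11 of them, with a highest value of 4.32. Most of these receptors are carried by leukocytes, and Cxcl15 and Cxcl17 are products of mucosal epithelium. Under 4 on all 12 arrays of the tissue were 18 members in lung and 32 in heart, among them Ccl3, Ccl4, Ccl7, Ccl20, Ccl24, Cxcl11, Xcl1, Ccr3 and Ccr4 in both. A gene could pass through the arrays of a single group, so counts over the members tested are descriptions only. In whole tissue, fewer cells of a type and less RNA per cell cannot be told apart.

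Several members gave high values throughout. In lung, Cxcl15 lay between 13.92 and 14.79 over the 12 arrays, Ccl6 between 10.71 and 13.05, Cxcl12 between 9.30 and 11.87, Ackr3 between 10.16 and 11.45 and Cxcr4 between 8.56 and 11.09. In heart, Ackr3 lay between 12.47 and 13.78, Cxcl12 between 11.36 and 12.16 and Cxcl14 between 8.32 and 12.35. Ackr3 is the atypical receptor that takes up Cxcl12, and Cxcr4 is the signalling receptor of the same ligand. Cxcr4 stood between 4.02 and 5.83 in heart. On the probe sets that stood for them, no call was made for any of Cxcl12, Cxcr4 and Ackr3 in either tissue. When every probe set was fitted, Cxcl12 was called for PM over both genotypes in lung. It was also called in that fit for genotype over both treatments in heart.

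In lung, the comparison of PM with PBS asked which chemokine transcripts differed 36 h after the particles. Averaged over both genotypes, 7 members were higher under PM and 0 were lower, namely the ligands Ccl5, Ccl9, Cxcl10 and Cxcl16 and the receptors Ccr1, Cx3cr1 and Ackr4. These 7 are 21.9% of the 32 members tested, while 6.76% of the 11600 genes tested in lung were called in this comparison and 5.41% were called higher. The median log2 difference was 0.80 over the 18 ligands and 0.41 over the 14 receptors, against 0.08 over all genes tested. A call means an adjusted p under 0.05 in limma with Benjamini-Hochberg adjustment over all genes tested in the tissue throughout.

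**Figure D1:**
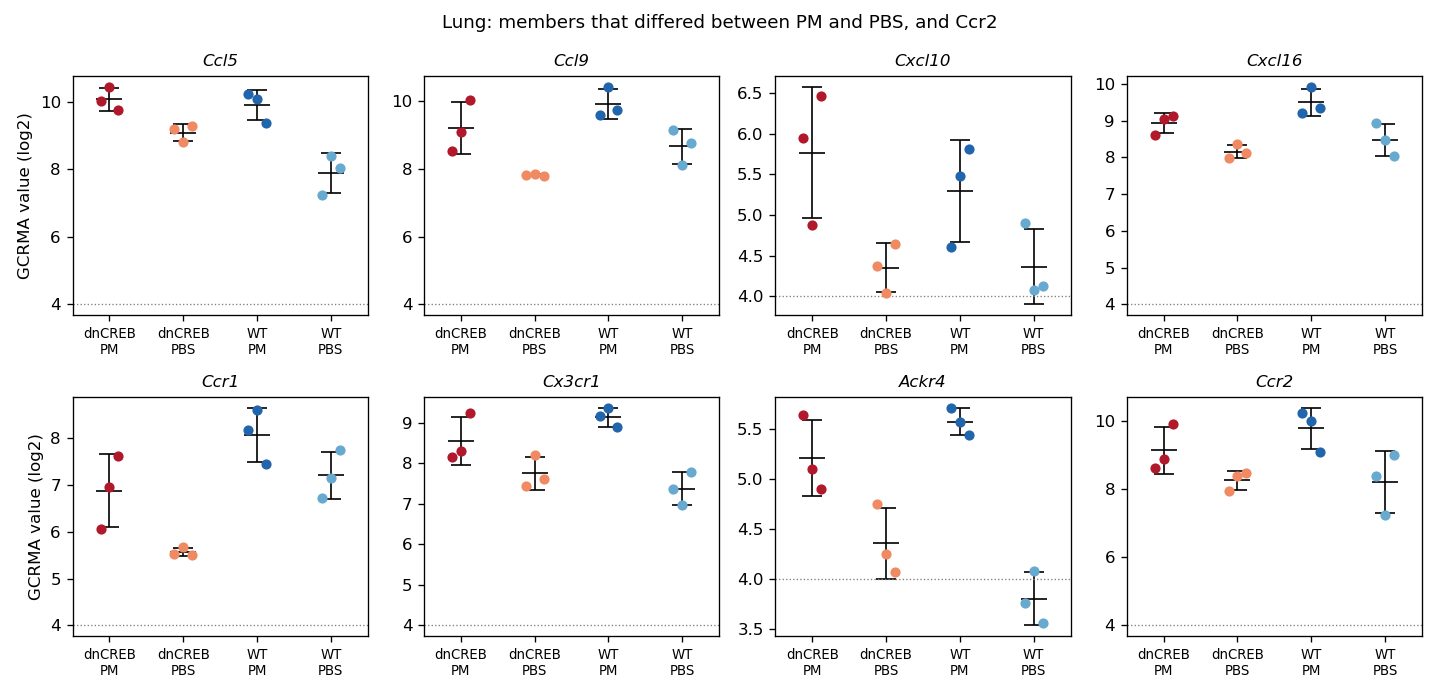
GCRMA values (log2) in lung of the 7 members that were higher under PM than under PBS over both genotypes, and of Ccr2, by group. Points are single arrays, the short line with bars is the mean ± SD over 3 arrays, and the dotted line marks a log2 value of 4. For Ackr4, Ccl5, Ccl9, Cxcl16 and Ccr2 the PM arrays of each genotype lie above its PBS arrays. For Ackr4 and Ccl5 all PM arrays lie above all PBS arrays.

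Ccl5 (chr11:83525778-83530518, GRCm38.p6), an attractant of T cells and monocytes made by T and NK cells, had values of 10.02, 10.45 and 9.78 in dnCREB PM lungs, 9.19, 8.81 and 9.30 in dnCREB PBS lungs, 10.24, 10.11 and 9.39 in WT PM lungs and 7.23, 8.39 and 8.06 in WT PBS lungs. The 6 PM arrays all lay above the 6 PBS arrays, and the WT PBS arrays were the lowest. Over both genotypes Ccl5 was 1.5 ± 0.23 (SE) higher on the log2 scale under PM, which is 2.84-fold, with a limma adjusted p of 0.0078. Ccl9 (chr11:83572917-83578636), a myeloid CC ligand of mice that acts on Ccr1, had values of 8.53, 9.09 and 10.04 in dnCREB PM lungs, 7.82, 7.86 and 7.80 in dnCREB PBS lungs, 9.60, 10.43 and 9.76 in WT PM lungs and 9.15, 8.12 and 8.76 in WT PBS lungs. Its PM arrays lay above the PBS arrays of the same genotype, but the dnCREB PM arrays overlapped the WT PBS arrays. The difference was 1.32 ± 0.26 with an adjusted p of 0.0211. A second probe set of Ccl9 gave 0.73 ± 0.29 with an adjusted p of 0.1306.

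Cxcl16 (chr11:70454389-70459984) is made as a transmembrane protein that is shed as the ligand of Cxcr6. Its values were 8.62, 9.04 and 9.14 in dnCREB PM lungs, 8.0, 8.37 and 8.12 in dnCREB PBS lungs, 9.22, 9.92 and 9.36 in WT PM lungs and 8.92, 8.47 and 8.04 in WT PBS lungs. The groups did not overlap within a genotype, and the log2 difference over both genotypes was 0.90 ± 0.18 with an adjusted p of 0.0219. A second Cxcl16 probe set gave 0.50 ± 0.18 with an adjusted p of 0.1092. Cxcl10 (chr5:92346638-92348889), an interferon-induced ligand of Cxcr3, had values of 5.95, 4.88 and 6.47 in dnCREB PM lungs, 4.37, 4.04 and 4.65 in dnCREB PBS lungs, 4.60, 5.48 and 5.81 in WT PM lungs and 4.90, 4.07 and 4.12 in WT PBS lungs. The dnCREB groups were apart and the WT groups overlapped through WT PM replicate 1 and WT PBS replicate 1. Its difference of 1.17 ± 0.30 had an adjusted p of 0.0419, and the call was lost when any 1 of 9 of the 12 arrays was left out (all but dnCREB PM replicate 2, WT PM replicate 1 and WT PBS replicate 1), with log2 differences of 1.00 to 1.25 and adjusted p of 0.0643 to 0.0907. Cxcl10 lies within the gene Art3, which differed by -0.11 with an adjusted p of 0.7676. Of the other interferon-induced ligands of Cxcr3, Cxcl11 stayed under 4 on every array, and so did the probe set that stood for Cxcl9, while a second Cxcl9 probe set exceeded 4 on 2 lung arrays, with a highest value of 5.16.

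Among the receptors, Ackr4 (chr9:104097682-104126643) scavenges Ccl19, Ccl21 and Ccl25. It had values of 5.63, 5.10 and 4.90 in dnCREB PM lungs, 4.75, 4.25 and 4.07 in dnCREB PBS lungs, 5.71, 5.57 and 5.44 in WT PM lungs and 3.76, 4.09 and 3.56 in WT PBS lungs. All 6 PM arrays lay above all 6 PBS arrays. The log2 difference was 1.31 ± 0.17 with an adjusted p of 0.0055, and a second probe set gave 1.14 ± 0.21 with an adjusted p of 0.0121. Ackr4 lies within the gene Acad11, which differed by 0.12 with an adjusted p of 0.6883. Of its ligands, Ccl25 was called in no lung comparison and exceeded 5 only on dnCREB PBS replicate 1, where it was 7.13, while Ccl19 and Ccl21 shared their probe sets with other genes.

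Cx3cr1 (chr9:120048683-120068296), the receptor of Cx3cl1 on monocytes, macrophages and NK cells, had values of 8.15, 8.29 and 9.23 in dnCREB PM lungs, 7.44, 8.21 and 7.61 in dnCREB PBS lungs, 9.16, 9.36 and 8.90 in WT PM lungs and 7.38, 6.96 and 7.77 in WT PBS lungs. The WT groups were clearly apart, and the dnCREB groups overlapped through dnCREB PM replicate 1 and dnCREB PBS replicate 2. The difference over both genotypes was 1.29 ± 0.23 with an adjusted p of 0.0147. The second Cx3cr1 probe set stayed under 4 on every lung array, at 2.36 to 2.95. Ccr1 (chr9:123962126-123968692), a receptor of Ccl5, Ccl6 and Ccl9 on myeloid cells, had values of 6.06, 6.95 and 7.62 in dnCREB PM lungs, 5.52, 5.68 and 5.51 in dnCREB PBS lungs, 8.17, 8.60 and 7.45 in WT PM lungs and 6.73, 7.15 and 7.75 in WT PBS lungs. Its WT groups overlapped and its dnCREB groups did not. The difference was 1.09 ± 0.28 with an adjusted p of 0.0454, and the call was lost without any 1 of 9 of the 12 arrays (all but dnCREB PM replicate 1, WT PM replicate 3 and WT PBS replicate 3), with differences of 0.90 to 1.11 and adjusted p of 0.0568 to 0.1025. Ccr2, the main receptor for monocyte recruitment, just missed the threshold at 1.22 ± 0.33 with an adjusted p of 0.0510. The other probe sets of Ccr1 and Ccr2 also lay above 4 on every lung array, and their differences are not given here.

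The calls of Ccl9 and Cxcl16 were also lost without dnCREB PBS replicate 1 (1.32 with adjusted p 0.0511 for Ccl9, 0.86 with adjusted p 0.0560 for Cxcl16), without dnCREB PBS replicate 3 (1.32 with 0.0592, 0.89 with 0.0637) and without dnCREB PM replicate 2 (1.36 with 0.0511, 0.87 with 0.0617). Without the 5 arrays that held skeletal muscle RNA, 0 genes of the whole array and so 0 members were called. The differences were then 1.38 for Ackr4 (adjusted p 0.2601), 1.46 for Ccl5 (0.3060), 1.41 for Cxcl10 (0.3479), 1.02 for Ccl9 (0.4057), 0.77 for Cx3cr1 (0.4057), 0.67 for Cxcl16 (0.4806) and 0.53 for Ccr1 (0.6615). Only 7 arrays remained in that fit, with a single WT PM array and a single dnCREB PBS array that were assumed to vary like the other groups, and the values of Cx3cr1 and Ccr1 moved by over 1.5 times. With the Xist level as a covariate, Ackr4 (1.37, adjusted p 0.0341) and Ccl5 (1.75, 0.0358) stayed called and the other 5 did not, at adjusted p of 0.0591 to 0.0949. The 1 WT PM array without Xist, replicate 2, lay above all WT PBS arrays for each of the 7 members. That array is also 1 of the 5 with skeletal muscle RNA, which no WT PBS array held, so it does not separate these differences.

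In WT mice alone, 3 of the 32 members tested were higher under PM and 0 were lower, and they were Ackr4 with a log2 difference of 1.77 ± 0.24 (adjusted p 0.0117), Ccl5 with 2.02 ± 0.32 (0.0199) and Cx3cr1 with 1.77 ± 0.32 (0.0234). This is 9.38% of the members tested, against 2.39% of all genes called and 1.96% called higher. None of the 3 had overlapping groups. At an unadjusted p under 0.05 there were 17 of the 32 members tested, against 26.3% of all genes. The members with the next smallest p were Ccl27a, a ligand of Ccr10, at -1.02 ± 0.25 (adjusted p 0.0560) and Cxcl16 at 1.02 ± 0.26 (0.0598). Left out singly, WT PM replicate 2 ended the calls of Ccl5 (1.92, adjusted p 0.0659) and Cx3cr1 (1.66, 0.0904), and WT PBS replicate 1 (1.77, 0.0530) and WT PBS replicate 2 (1.56, 0.0790) ended that of Cx3cr1. Without the 5 arrays with skeletal muscle RNA none was called, at 1.64 for Ackr4, 1.5 for Ccl5 and 1.53 for Cx3cr1 (adjusted p 0.3781 to 0.5277), where WT PM was a single array.

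In dnCREB mice alone, 0 members were called under PM, against 0.00862% of all genes, which is 1 gene. At an unadjusted p under 0.05 there were 8 of the 32 members tested, against 9.72% of all genes. The smallest p belonged to Ccl9 at 1.39 ± 0.37 (adjusted p 0.3093), Ackr4 at 0.85 ± 0.24 (0.3100) and Cxcl10 at 1.42 ± 0.42 (0.3241). Whether PM changed members differently in dnCREB and in WT lungs was tested by the interaction, in which 0 members and 0.00862% of all genes were called. In it, 4 of the 32 members tested had an unadjusted p under 0.05, against 5.22% of all genes. The 3 smallest p were those of Ccr7, the receptor that guides cells to lymph nodes, at -1.55 ± 0.56, Ackr4 at -0.91 ± 0.33 and Ccl27a at 0.87 ± 0.35, each with an adjusted p of 0.8314.

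**Figure D2:**
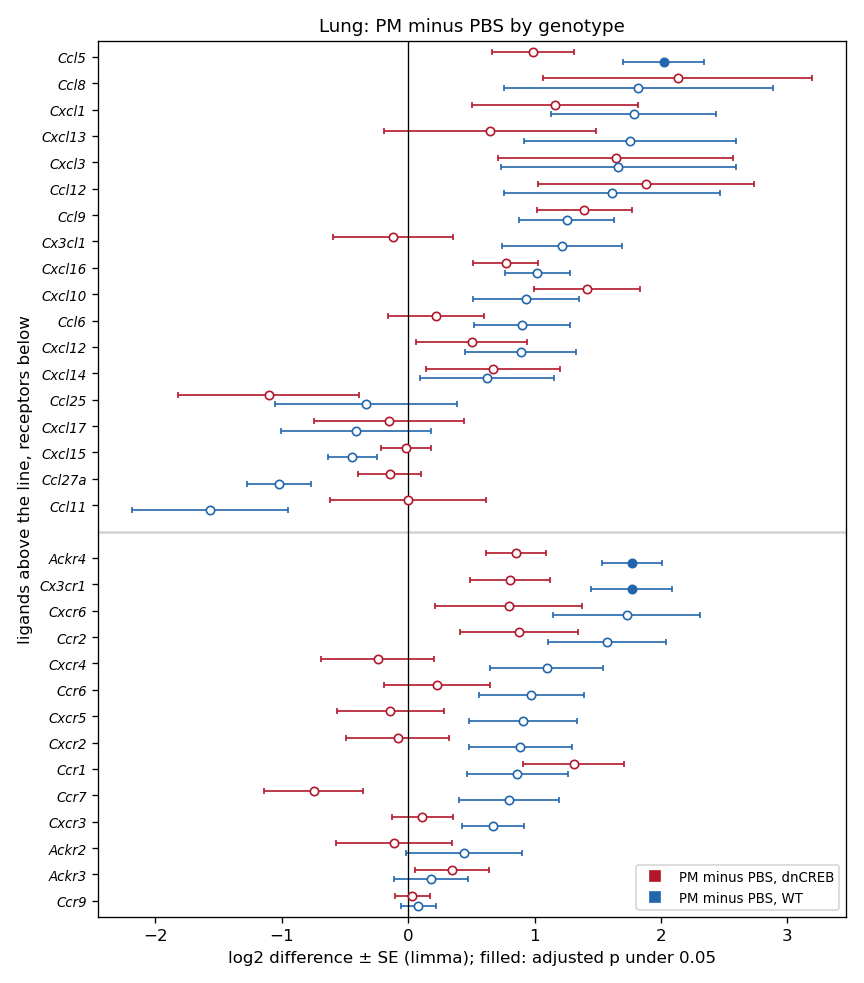
Log2 difference between PM and PBS in lung, ± SE from limma, for the 32 members tested, in dnCREB mice (red) and WT mice (blue). Filled points have an adjusted p under 0.05, which Ccl5, Ackr4 and Cx3cr1 reached in WT mice and none reached in dnCREB mice.

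Of the CXC ligands that act on Cxcr2, Cxcl1 and Cxcl3 were tested in lung and not called, and Cxcl3 passed the filter through PM arrays alone. Cxcl2 and Cxcl5 did not pass the filter and were not tested. The highest values of Cxcl2, Cxcl3 and Cxcl5 sat on 1 array of a group. Cxcl1, a neutrophil attractant, had values of 6.02, 6.15 and 8.87 in dnCREB PM lungs, 6.44, 5.43 and 5.69 in dnCREB PBS lungs, 6.52, 6.90 and 7.90 in WT PM lungs and 5.31, 5.08 and 5.58 in WT PBS lungs. The WT groups did not overlap and the dnCREB groups did, and the difference over both genotypes was 1.47 ± 0.46 with an adjusted p of 0.0746. For Cxcl3 the values were 4.71, 3.82 and 7.13 in dnCREB PM lungs, 3.73, 3.46 and 3.54 in dnCREB PBS lungs, 3.76, 4.54 and 7.56 in WT PM lungs and 3.78, 3.37 and 3.72 in WT PBS lungs. Cxcl2 exceeded 4 on 2 arrays and Cxcl5 on 1 array. The highest array of each PM group for Cxcl1, Cxcl2 and Cxcl3 was replicate 3, and Cxcl5 reached 6.87 on dnCREB PM replicate 3. Their receptor Cxcr2 differed by 0.40 ± 0.29 over both genotypes with an adjusted p of 0.3835. Cxcl15, an epithelial CXC ligand of mouse lung, had the opposite sign at -0.23 ± 0.14 with an adjusted p of 0.3021.

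**Figure D3:**
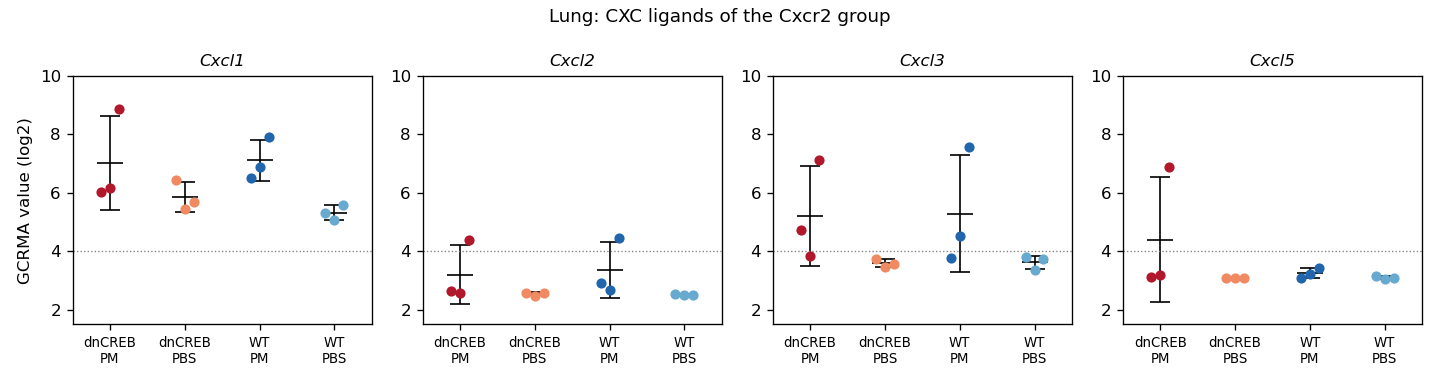
GCRMA values (log2) in lung of 4 CXC ligands of the Cxcr2 group, by group, all on the same axis. Points are single arrays, the short line with bars is the mean ± SD over 3 arrays, and the dotted line marks a log2 value of 4. The highest point of each PM group is replicate 3 for Cxcl1, Cxcl2 and Cxcl3, and PBS arrays stay under 4 for Cxcl2, Cxcl3 and Cxcl5.

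Ccl12 and Ccl8 varied widely within groups. Ccl12, a ligand of Ccr2 in mice, lay at 3.18, 4.64 and 6.93 in dnCREB PM lungs, 3.33, 2.54 and 3.23 in dnCREB PBS lungs, 5.07, 5.87 and 5.59 in WT PM lungs and 5.52, 2.86 and 3.31 in WT PBS lungs. Its difference over both genotypes was 1.75 ± 0.60 with an adjusted p of 0.0957. Ccl8 spread over 3.42 to 8.67 in WT PBS lungs alone. Ccl2, the best known ligand of Ccr2, exceeded 4 on 1 lung array. Ccl6, a further myeloid ligand of Ccr1, differed by 0.56 ± 0.27 with an adjusted p of 0.1996. Of the partners of called members, the receptor Cxcr6 of Cxcl16 differed by 1.26 ± 0.41 (adjusted p 0.0821), the receptor Cxcr3 of Cxcl10 by 0.39 ± 0.17 (0.1669), and the ligand Cx3cl1 of Cx3cr1 by 0.55 ± 0.33 (0.3068). Cxcl13 and Cxcr5, the ligand and receptor that organise B cell follicles, differed by 1.20 ± 0.59 (0.2147) and 0.38 ± 0.30 (0.4235).

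Genotype was called for 0 members in lung, under PBS, under PM and averaged, against 0.0259%, 0% and 0.00862% of all genes. Of the 32 members tested, 6 had an unadjusted p under 0.05 under PBS, 3 under PM and 5 on average, against 5.42%, 3.97% and 4.85% of all genes. Under PBS the smallest p were those of Ccr1 at -1.64 ± 0.40, with 5.57 ± 0.09 in dnCREB lungs and 7.21 ± 0.51 in WT lungs (SD, n = 3 each), and of Ccl5 at 1.20 ± 0.32, each with a limma adjusted p of 0.5828, followed by Ccr7 at 1.11 ± 0.39 (0.8425). Under PM they were Cxcr2 at -1.26 ± 0.41, Ccr1 at -1.20 ± 0.40 and Ccl6 at -0.92 ± 0.38, each with an adjusted p of 0.9010. On average, Ccr1 differed by -1.42 ± 0.28 with an adjusted p of 0.6445, Ccl5 by 0.69 ± 0.23 and Ccl9 by -0.78 ± 0.26, both with 0.9662.

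Genes of the chemokine pathway and cell type markers were read in the same fit. Beside the counts here, 6.76% of all genes tested in lung were called for PM over both genotypes, and 5.41% were called higher. Of 27 tested genes that transmit chemokine signals, 7 were higher under PM and 0 were lower over both genotypes, among them Arrb2, an arrestin that uncouples receptors, at 1.00 (adjusted p 0.0106), Was, an organiser of actin, at 1.56 (0.0218), and Vav1, a Rac activator, at 1.47 (0.0226). Of 13 tested inducers of chemokines, 4 were higher, namely Irf7 at 2.02, Relb at 1.04, Nfkb2 at 0.95 and Ltb at 0.93. Markers of leukocytes moved in the same comparison. Of the macrophage and monocyte list 7 of 14 were higher, with C1qc at 2.19, C1qb at 2.09 and Marco at 1.58, and the list mean lay at 9.38 to 10.18 in dnCREB PM lungs, 8.95 to 9.09 in dnCREB PBS lungs, 10.10 to 10.59 in WT PM lungs and 8.82 to 9.11 in WT PBS lungs. The log2 of its summed level lay at 16.42 to 16.55, 16.49 to 16.56, 16.50 to 16.75 and 16.27 to 16.66 in the same groups. Of the NK list 3 of 4 were higher, with Nkg7 at 1.69, Prf1 at 1.35 and Gzma at 1.30, and its summed level lay at 10.90 to 11.69, 10.13 to 10.26, 10.95 to 11.65 and 9.33 to 10.68. Of the neutrophil list 1 of 6 was higher, of the B cell list 1 of 5, of the dendritic list 1 of 4 and of the T cell list 0 of 5. The part of these cells in the chemokine differences was not tested.

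The promoter of Cxcl10 is shown because it is the interferon-induced member among those higher under PM. It is the RefSeq sequence from 250 bases before to 50 after the gene start on GRCm38.p6 (chr5:92348840-92349139, minus strand), and the capitals mark matches on either strand to the core of the interferon-stimulated response element and to the NF-kappa-B motif.
Cxcl10: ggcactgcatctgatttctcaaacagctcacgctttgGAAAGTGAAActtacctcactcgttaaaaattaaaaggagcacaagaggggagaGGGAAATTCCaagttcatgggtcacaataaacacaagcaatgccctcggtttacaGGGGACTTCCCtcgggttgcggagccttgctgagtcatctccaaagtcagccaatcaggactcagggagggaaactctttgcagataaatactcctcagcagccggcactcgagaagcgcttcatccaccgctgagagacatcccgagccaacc
It held 1 match to the interferon core, which 3.44% of 32851 promoters of this length hold, and 3 matches to NF-kappa-B, 2 of them overlapping, which 8.46% hold. A match describes the letters only. Among the 41 members with a promoter in the table, the interferon core was found for 2, Cxcl10 and Cxcl14, and the NF-kappa-B motif for 12.

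In the left ventricle, the comparison of dnCREB with WT asked how chemokine transcripts differed in these hearts. Averaged over PM and PBS, 4 members were higher in dnCREB hearts, the ligands Cx3cl1 and Cxcl16 and the atypical receptors Ackr2 and Ackr4, and 2 were lower, the ligands Ccl11 and Cxcl1. These 6 are 30.0% of the 20 members tested, a share no higher than the background of 35.9% of the 9962 genes tested in heart, of which 22.3% were higher and 13.6% lower. The median difference was 0.35 over the 14 ligands and 0.26 over the 6 receptors, against 0.05 over all genes tested. These medians of the members depended on the filter. With no filter they were -0.04 over ligands and -0.02 over receptors, and with the filter at 6 they were 0.94 and 0.84. Among all genes called, 62.2% were higher in dnCREB hearts, and 50.1% were after quantile normalization. Under PBS these shares were 70.1% and 56.0%, and quantile normalization moved the median of all genes to -0.03 in place of 0.09.

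**Figure D4:**
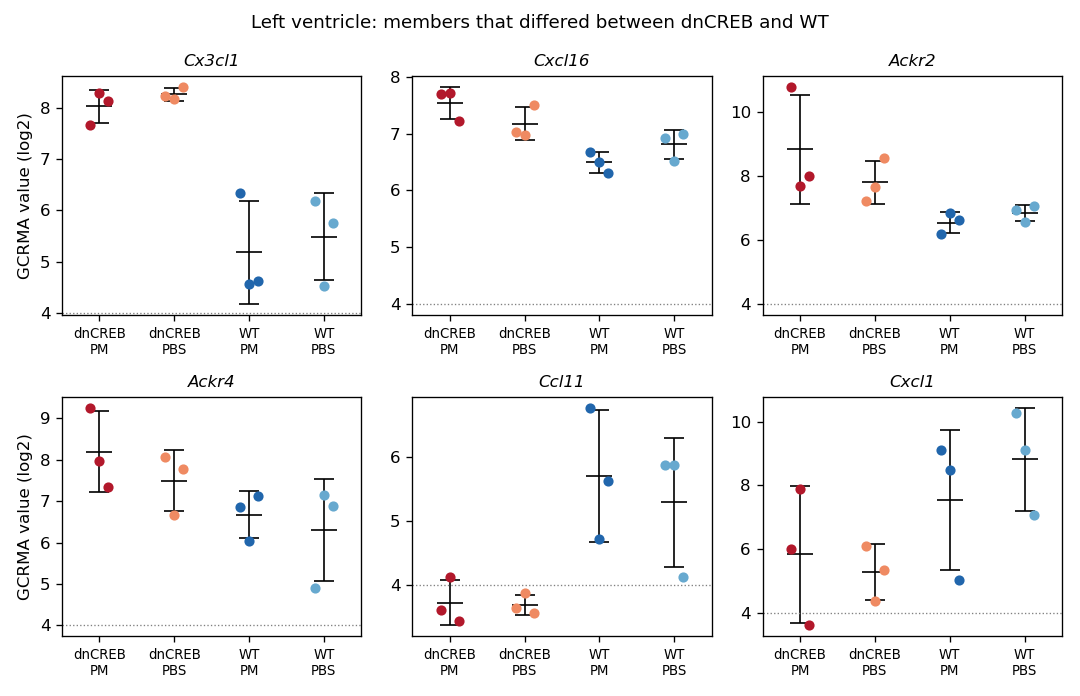
GCRMA values (log2) in the left ventricle of the 6 members that differed between dnCREB and WT over both treatments, by group. Points are single arrays, the short line with bars is the mean ± SD over 3 arrays, and the dotted line marks a log2 value of 4. All 6 dnCREB arrays lie above all WT arrays for Cx3cl1 and Ackr2 and below all of them for Ccl11.

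Cx3cl1 (chr8:94772180-94782427) is made as a transmembrane chemokine that tethers cells carrying Cx3cr1 and is shed as a soluble attractant. It had values of 7.66, 8.28 and 8.13 in dnCREB PM hearts, 8.22, 8.16 and 8.40 in dnCREB PBS hearts, 6.34, 4.57 and 4.63 in WT PM hearts and 6.18, 4.53 and 5.74 in WT PBS hearts. All 6 dnCREB arrays lay above the 6 WT arrays. The log2 difference was 2.81 ± 0.35, which is 7.0-fold, with a limma adjusted p of 2.3e-04. It was 2.77 ± 0.50 under PBS (adjusted p 0.0043) and 2.84 ± 0.50 under PM (0.0039). The 3 other Cx3cl1 probe sets lay under 4 on all heart arrays. The receptor Cx3cr1 differed by 0.33 ± 0.16 with an adjusted p of 0.1391, and it was called with the Xist level as a covariate and with array weights.

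Cxcl16 had values of 7.69, 7.71 and 7.22 in dnCREB PM hearts, 7.03, 6.98 and 7.51 in dnCREB PBS hearts, 6.67, 6.50 and 6.31 in WT PM hearts and 6.92, 6.51 and 7.0 in WT PBS hearts. The groups were apart under PM and overlapped under PBS. It was 0.70 ± 0.14 higher in dnCREB hearts on average (adjusted p 0.0035) and 1.05 ± 0.20 higher under PM (0.0058), while under PBS the difference was 0.36 ± 0.20 (0.2346). These values rest on 1 probe set, since the second Cxcl16 probe set lay at 1.46 to 1.49 on all 12 heart arrays, whereas in lung it lay at 7.74 to 9.36. The interaction of genotype and PM was 0.69 ± 0.28 for Cxcl16 with an adjusted p of 0.9801, so the genotype difference was not shown to depend on treatment. Its receptor Cxcr6 exceeded 4 on 1 heart array.

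Ackr2 (chr9:121898355-121911075), a scavenger of inflammatory CC chemokines, had values of 10.80, 7.71 and 8.03 in dnCREB PM hearts, 7.23, 7.66 and 8.56 in dnCREB PBS hearts, 6.19, 6.86 and 6.63 in WT PM hearts and 6.94, 6.58 and 7.07 in WT PBS hearts. The genotypes did not overlap, and dnCREB PM replicate 1 was the highest. The other Ackr2 probe sets stayed under 4 on every heart array, at 2.05 to 3.81 and 2.16 to 2.94, so only the chosen probe set gives these values. In lung the others reached 7.50 and 6.43. For the chosen probe set, the results in heart were as follows. The difference was 1.62 ± 0.48 on average (adjusted p 0.0239) and 2.29 ± 0.68 under PM (0.0384). On average the call was lost without WT PBS replicate 2 (1.55, adjusted p 0.0533), WT PM replicate 1 (1.53, 0.0524) or dnCREB PBS replicate 3 (1.44, 0.0582). Under PM it was lost without any 1 of the 6 WT arrays or dnCREB PBS replicate 2, at 2.10 to 2.44 with adjusted p of 0.0523 to 0.1087, and the value without dnCREB PM replicate 1 was 1.31.

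Ackr4 had values of 9.25, 7.98 and 7.34 in dnCREB PM hearts, 8.06, 6.65 and 7.78 in dnCREB PBS hearts, 6.85, 6.04 and 7.13 in WT PM hearts and 4.90, 7.14 and 6.87 in WT PBS hearts. The groups were apart under PM and overlapped under PBS. The difference was 1.35 ± 0.47 with an adjusted p of 0.0440, and a second probe set gave 1.83 ± 0.56 with 0.0329 in the fit over all probe sets, in which the first had 0.0530. The call was lost without any 1 of 8 arrays (dnCREB PM replicates 1 and 2, dnCREB PBS replicates 1 and 3, WT PM replicates 1 to 3 and WT PBS replicate 1), at 1.00 to 1.47 with adjusted p of 0.0546 to 0.0991. The enclosing gene Acad11 was lower in dnCREB hearts at -0.50 with an adjusted p of 0.0088. Ackr3, the most steadily high atypical receptor in heart, differed by -0.19 ± 0.25 with an adjusted p of 0.5863.

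Ccl11 (chr11:82057832-82062955), the eosinophil attractant eotaxin, had values of 3.61, 4.13 and 3.45 in dnCREB PM hearts, 3.65, 3.87 and 3.57 in dnCREB PBS hearts, 6.76, 4.72 and 5.62 in WT PM hearts and 5.87, 5.87 and 4.14 in WT PBS hearts. All dnCREB arrays lay below all WT arrays, by little in the case of WT PBS replicate 3. The difference was -1.78 ± 0.38 (adjusted p 0.0050) on average and -1.97 ± 0.54 (0.0283) under PM, and under PBS it was -1.60 ± 0.54 (0.0652). The call under PM was lost without dnCREB PM replicate 1 (-1.91, adjusted p 0.0730), dnCREB PM replicate 3 (-1.83, 0.0848), WT PM replicate 1 (-1.44, 0.0882) or WT PM replicate 3 (-2.01, 0.0653). Of the dnCREB hearts only PM replicate 2, at 4.13, exceeded 4, so Ccl11 passed the filter through the WT hearts. With no filter it stayed called on average and was not called under PM (limma adjusted p 0.0706). Its receptor Ccr3 lay under 4 on all heart arrays.

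Cxcl1 (chr5:90891245-90893121) had values of 6.01, 7.87 and 3.60 in dnCREB PM hearts, 6.10, 4.35 and 5.35 in dnCREB PBS hearts, 9.13, 8.50 and 5.04 in WT PM hearts and 10.28, 9.11 and 7.08 in WT PBS hearts. The groups overlapped under PM and were apart under PBS. The difference was -2.64 ± 0.91 with an adjusted p of 0.0445, and a second probe set gave -1.40 ± 0.39 with 0.0221. The call was lost without any 1 of 9 arrays (all but dnCREB PM replicate 2, WT PM replicate 3 and WT PBS replicate 3), at -2.85 to -2.08 with adjusted p of 0.0538 to 0.0993. Under PBS alone the difference was -3.55 ± 1.29 with an adjusted p of 0.0827. The receptor Cxcr2 lay under 4 on all heart arrays.

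Sex-linked transcripts ran with genotype in heart, as all 6 WT hearts and 1 dnCREB heart, PM replicate 3, were high in Xist. On that array Cx3cl1 was 8.13, Ackr2 8.03 and Ccl11 3.45, each on the dnCREB side of every WT array, and so were Cxcl16 at 7.22, Ackr4 at 7.34 and Cxcl1 at 3.60. With the Xist level as a covariate, which then rests on this 1 array, Cx3cl1 was called at 2.92 (adjusted p 0.0281). The others were not, at 0.33 for Cxcl16 (0.4426), 0.66 for Ackr2 (0.7036), 0.41 for Ackr4 (0.8254), -1.94 for Ccl11 (0.1380) and -4.95 for Cxcl1 (0.0737).

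Within each treatment, 1 member was called under PBS, which was Cx3cl1, and 4 under PM, which were Cx3cl1, Cxcl16, Ackr2 and Ccl11. These are 5.0% and 20.0% of the members tested, against 18.8% and 20.5% of all genes. With the Xist level as a covariate, which divides the PBS hearts exactly by genotype, Cx3cl1 was not called under PBS (2.91, adjusted p 0.1043). Under PM, Cx3cl1 stayed called, and Cxcl16 (0.75, 0.0737), Ackr2 (1.53, 0.3132) and Ccl11 (-2.09, 0.1117) were not. Members that stayed short of the threshold on average included Cxcl14, a stromal chemokine, at 1.44 ± 0.57 (adjusted p 0.0736), Ccl9 at 0.91 ± 0.36 (0.0752), Ccl12 at 2.13 ± 1.02 (0.1265) and Ccl8 at 1.48 ± 0.73 (0.1371). Ccl12 and Ccl8, both monocyte attractants, varied widely within groups, and Ccl12 had values of 5.78, 2.62 and 7.85 in dnCREB PBS hearts alone. Ccr9, Cxcl10 and Cxcl3 were nearly flat on the probe sets that stood for them, with ranges over the 12 arrays of 0.651, 0.620 and 0.468 in that order. Cxcl13 had a range of 0.616, but its other probe set ran between 2.47 and 8.84 and exceeded 4 on 4 heart arrays.

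**Figure D5:**
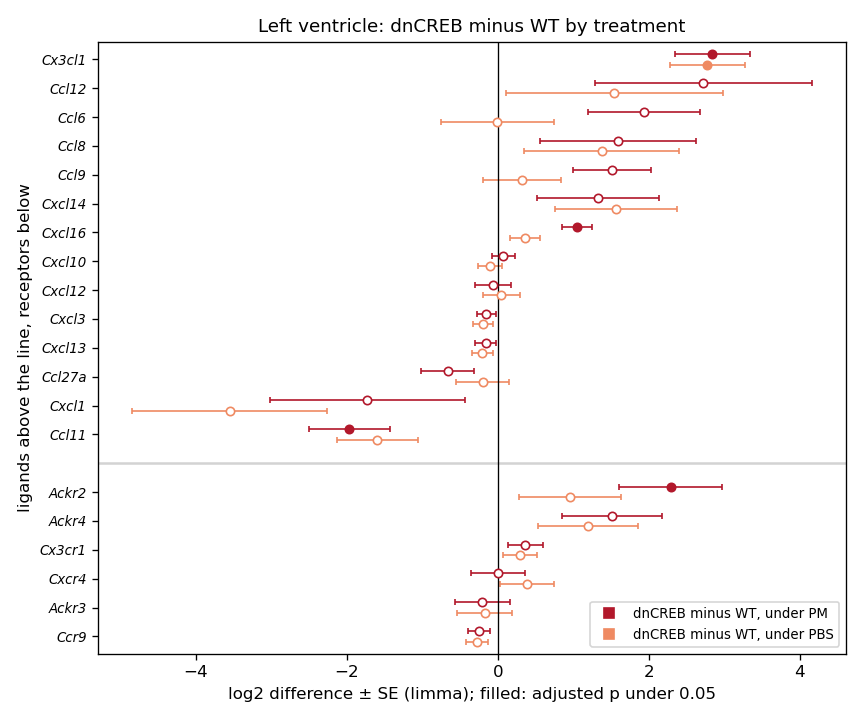
Log2 difference between dnCREB and WT in the left ventricle, ± SE from limma, for the 20 members tested, under PM (dark red) and under PBS (orange). Filled points have an adjusted p under 0.05, which Cx3cl1, Cxcl16, Ackr2 and Ccl11 reached under PM and Cx3cl1 reached under PBS.

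The promoters of 4 of these members are shown because CREB1 is known to bind the cAMP response element, TGACGTCA, and its shorter form, TGACG. They run from 250 bases before to 50 after the start in RefSeq on GRCm38.p6, with capitals for matches on either strand to these motifs and to NF-kappa-B. Cx3cl1 is at chr8:94771930-94772229, plus strand, Cxcl1 at chr5:90890995-90891294, plus strand, Ackr2 at chr9:121898105-121898404, plus strand and Ackr4 at chr9:104126594-104126893, minus strand.
Cx3cl1: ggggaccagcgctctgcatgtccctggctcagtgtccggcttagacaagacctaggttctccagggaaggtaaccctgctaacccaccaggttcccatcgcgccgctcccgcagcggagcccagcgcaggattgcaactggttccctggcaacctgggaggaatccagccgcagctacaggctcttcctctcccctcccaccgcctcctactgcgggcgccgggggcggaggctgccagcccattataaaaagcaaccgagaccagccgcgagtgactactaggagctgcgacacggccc
Cxcl1: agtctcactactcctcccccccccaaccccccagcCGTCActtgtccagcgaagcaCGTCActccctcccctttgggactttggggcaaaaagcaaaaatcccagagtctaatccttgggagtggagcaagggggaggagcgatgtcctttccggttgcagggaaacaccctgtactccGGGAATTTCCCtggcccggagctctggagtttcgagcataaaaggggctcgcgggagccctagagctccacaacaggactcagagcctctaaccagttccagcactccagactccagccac
Ackr2: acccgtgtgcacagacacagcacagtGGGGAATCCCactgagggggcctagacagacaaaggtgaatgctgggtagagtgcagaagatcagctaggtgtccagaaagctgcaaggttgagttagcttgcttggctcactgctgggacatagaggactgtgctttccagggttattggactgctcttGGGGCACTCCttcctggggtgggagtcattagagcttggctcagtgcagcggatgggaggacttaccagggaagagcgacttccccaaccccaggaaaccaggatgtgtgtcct
Ackr4: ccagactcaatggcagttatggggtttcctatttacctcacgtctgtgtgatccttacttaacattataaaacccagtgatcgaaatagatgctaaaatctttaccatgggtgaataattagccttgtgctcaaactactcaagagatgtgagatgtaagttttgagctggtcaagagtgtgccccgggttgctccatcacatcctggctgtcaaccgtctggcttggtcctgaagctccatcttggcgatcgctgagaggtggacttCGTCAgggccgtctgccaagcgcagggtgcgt
The full element was in 1.79% of all promoters and in 0 of the 41 members with a promoter. The shorter form was in 20.8% of all promoters and in 8 members, among them Cxcl1 with 2 matches and Ackr4 with 1. Cxcl1 also held 2 overlapping NF-kappa-B matches and Ackr2 held 2, while the Cx3cl1 window held none of the motifs searched.

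Some markers differed with genotype in heart as well. Beside the counts here, 35.9% of all genes tested in heart were called over both treatments, 22.3% higher and 13.6% lower. Of the macrophage and monocyte list, 12 of 13 tested genes were higher in dnCREB hearts, with Csf1r, the receptor for the macrophage growth factor, at 1.42 and Ctss at 1.32. The summed level lay at 15.95 to 16.14 in dnCREB PM hearts, 15.39 to 16.18 in dnCREB PBS hearts, 14.17 to 14.81 in WT PM hearts and 14.66 to 16.01 in WT PBS hearts. The fibroblast list had 4 of 5 higher, with Col1a1 at 2.55 and Pdgfra at 1.10, and summed levels of 15.19 to 16.35, 15.71 to 15.98, 14.80 to 15.05 and 14.79 to 14.98 in these groups. Of the lymphatic endothelium list 3 of 4 were higher, Pdpn at 1.82, Lyve1 at 1.13 and Flt4 at 0.91, and Prox1 was lower at -0.57. NK markers stood at a summed level of 4.27 to 4.34 on all heart arrays and were not tested. Of 19 tested signalling genes 8 were higher, with the arrestin Arrb1 at 2.42 and the G protein subunit Gnai3 at 1.09, and 1 was lower, Rgs2, a brake on G protein signalling, at -1.59. Of 8 tested inducers 4 were higher, among them Relb at 0.75, and 1 was lower, Fos at -1.78. Their part in the chemokine differences was not tested.

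PM left no called difference among the members in heart. In WT hearts, in dnCREB hearts, on average and in the interaction, 0 of the 20 members were called, against 0.01%, 0%, 0% and 0% of all genes. At an unadjusted p under 0.05 there were 0 members in each of the first 3 and 1 in the interaction, Cxcl16, against 1.47%, 4.92%, 1.86% and 3.62% of all genes. In WT hearts the smallest p were those of Ccl9 at -1.08 ± 0.52, Ccl6 at -1.45 ± 0.74 and Cxcl16 at -0.32 ± 0.20, each with an adjusted p of 1.0000. In dnCREB hearts they were Cxcl16 at 0.37 ± 0.20 and Ackr2 at 1.03 ± 0.68, both with 0.9657, and Ackr4 at 0.69 ± 0.66 (0.9784). On average they were Ccl9 at -0.49 ± 0.36, Ackr4 at 0.53 ± 0.47 and Cxcl14 at -0.59 ± 0.57, each with 0.9996.

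Set side by side, Ackr4 was higher under PM in lung (1.31 ± 0.17) and differed by 0.53 ± 0.47 under PM in heart. Cxcl16 was higher under PM in lung (0.90 ± 0.18), and in heart it differed by 0.03 ± 0.14. Cx3cl1 was higher with dnCREB in heart (2.81 ± 0.35), and in lung, where the transgene was not raised, it differed by 0.31 ± 0.33 with an adjusted p of 0.9689. Ccl5, called under PM in lung, lay under 4 on all heart arrays. These differences between tissues were not tested.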

How the data were processed

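RNA from lung and left ventricle was hybridised to Affymetrix arrays, 3 per group. The authors deposited log2 values that they made with GCRMA, per the submitters' processing notes, and its version is not given in the sources used here. Of 45037 probe sets, 34945 had 1 gene symbol, 932 had several and 9160 had none in the platform annotation, and only those with 1 symbol were used. Each of the 18193 genes was represented by 1 probe set, that whose mean was highest across the 24 arrays. A gene was tested in a tissue if it exceeded a log2 value of 4 on at least 3 of its 12 arrays. Group means were fitted per tissue with limma 3.58.1 in R 4.3.3, with Benjamini-Hochberg adjustment over all genes tested and a threshold of 0.05, and the script was tested on simulated data. Genes named are the members called, those with the smallest p in each comparison, and their partners among ligands and receptors. The members and lists were chosen with earlier results of these data known. The alternatives changed the filter, normalization, probe sets, model, covariates and arrays. Same-numbered arrays correlated at -0.332 to 0.334 in lung and -0.3 to 0.311 in heart in their deviations from group means, so the numbers were not taken as pairs. Positions and promoters are from RefSeq on GRCm38.p6.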

Additional observations from a re-analysis of the deposited data

Results flagged for a closer look

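For 3 members the change had opposite signs in heart and lung, with every array of 1 group on 1 side in each tissue. Ccl6 in dnCREB compared with WT under PM differed by 1.94 in heart and -0.92 in lung, 2.86 apart on the log2 scale. Cxcl16 in the same comparison differed by 1.05 in heart and -0.57 in lung, 1.61 apart. Ccl9 under PM compared with PBS in WT mice differed by -1.08 in heart and 1.25 in lung, -2.34 as heart minus lung. Of these changes, only that of Cxcl16 in heart was called. The members were found by a search over every member tested in both tissues and over the genotype and PM comparisons. The share of all genes that would meet the same rule was not computed. These differences between the tissues were not tested.

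Some chemokine transcripts share a probe set with related genes and were not counted among the members. Selected comparisons are given in which the dnCREB or PM arrays all lay above the other group. For the Ccl21 probe set, some comparisons in which the groups overlapped are given too. Groups were also apart in the lower direction in some comparisons, of which that of Ccl27 under PM in WT lungs is given last. The probe set shared by Ccl21a, Ccl21b, Ccl21c and Ccl21d, ligands of Ccr7, averaged 10.80 ± 0.15 in dnCREB PBS lungs and 10.15 ± 0.24 in WT PBS lungs, a difference of 0.65 (SD, n = 3 each). It averaged 10.58 ± 0.25 in WT PM lungs and 10.15 ± 0.24 in WT PBS lungs, a difference of 0.44. In dnCREB lungs it was 11.27, 10.42 and 9.77 under PM, against 10.96, 10.76 and 10.67 under PBS, and the groups overlapped. In heart it averaged 12.09 ± 0.24 in dnCREB PBS hearts and 11.11 ± 0.30 in WT PBS hearts, a difference of 0.98. Under PM the genotypes overlapped, with 11.01, 12.32 and 12.23 in dnCREB hearts, against 11.21, 10.83 and 11.33 in WT hearts. The probe set shared by Ccl19 and its pseudogene Ccl19-ps1 averaged 4.54 ± 1.57 in dnCREB PM hearts, against 2.71 ± 0.09 in WT PM hearts, a difference of 1.83, and against 3.01 ± 0.08 in dnCREB PBS hearts, a difference of 1.53. The 3 dnCREB PM hearts had 6.34, 3.88 and 3.42, so the first array carried most of it. The probe sets shared by Ccl27a and Ccl27b were lower under PM in WT lungs. The first had values of 6.1, 6.4 and 5.9 in WT PM lungs, against 7.8, 7.0 and 6.9 in WT PBS lungs. The second had 5.2, 5.7 and 5.6, against 7.2, 6.3 and 6.0. In dnCREB lungs the PM and PBS arrays overlapped on each. None of these differences was tested.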

How the results depend on the processing

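Of 464 recomputed values of the called members, 357 stayed called, 107 kept the direction without the call and 0 changed direction. The number of members called under PM in WT lungs, 3, was 1 with only the groups compared, 7 with array weights, 0 with the skeletal muscle level as a covariate and 0 without the 5 arrays with skeletal muscle RNA, an alternative chosen after seeing the data. Over both genotypes the 7 members became 14 with array weights, 2 with the Xist level as a covariate and 0 without those 5 arrays. Array weights also gave 5 members under PM in dnCREB lungs and 1 for genotype in PBS lungs. In heart, the 1 member under PBS became 2 with all probe sets, with only the groups compared and with array weights, the 4 under PM became 2 with no filter and 2 with only the groups compared, and the 6 on average became 3 with no filter and 2 with the Xist level, of which Cx3cl1 was among the 6 and Cx3cr1 was not. Cx3cr1 was also called with the Xist level under PBS, in place of Cx3cl1, and under PM, where Cx3cl1 and Ccl9 were the others called. Leaving out 1 array at a time gave 1 to 5 members in WT lungs under PM, 3 to 9 over both genotypes, and in heart 1 to 2 under PBS, 2 to 5 under PM and 3 to 9 on average. With the replicate number as a block, 2 members were called in PBS hearts (Cxcl1 was added), and the numbers were not shown to pair the samples. Over all genes, calls under PM in WT lungs were 277, against 85 with no filter, 533 with all probe sets, 24 with only the groups compared, 738 with array weights, 707 with the Xist level, 10 with the muscle level and 4 without the 5 arrays. Over both genotypes they were 784, against 507, 2243 and 3031 with no filter, all probe sets and array weights, 324 with the Xist level and 0 without the 5 arrays. In dnCREB lungs 1 gene became 223 with all probe sets and 1772 with array weights, and for genotype in PBS lungs 3 became 172 with array weights. In heart the Xist level gave 433 in place of 1869 under PBS, 1092 in place of 2042 under PM and 1095 in place of 3578 on average, all probe sets gave 2826 under PBS and 5734 on average, and only the groups compared gave 1168 under PM. The cause of these changes was not tested.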
